A study of Mus musculus with 19 samples.

Results

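The adult mouse prostate was compared with cultured mouse embryonic fibroblasts (MEFs) by RNA-seq, to describe which functions and gene families separate the tissue from the cells. Members were the 6 samples labelled as prostate (FS009 to FS014) and the 6 labelled as fibroblasts (FS015 to FS020), 12 of the 19 samples of the series. The other samples were renal grafts. The prostates were whole glands of wild-type C57BL/6 mice at 6 weeks of age. The MEFs were C57BL/6 cells from the limbs of embryos at E13.5, the day of gestation, and came from male and female littermates pooled, grown in DMEM with serum. All 6 MEF samples were heterozygous for a LacZ knock-in allele that the prostates did not carry. The Methods describe a sort that removed cells positive for CD45, Ter119, CD31, Mac-1 and EpCAM from the MEFs. Tissue against culture, adult against embryo, organ of origin, sex and genotype therefore all differed between the groups and cannot be told apart. The labels do not say which samples came from separate animals or litters, so the p-values measure the spread between these samples.

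The prostate is a gland of branching ducts. Luminal epithelial cells line the ducts and, under androgen, make and secrete proteins that enter the seminal fluid. Basal epithelial cells lie beneath them, and a stroma of smooth muscle, fibroblasts, vessels and nerves surrounds each duct. Fibroblasts are mesenchymal cells that make collagen and the other proteins of the extracellular matrix. In culture with serum they attach to plastic, spread and divide. In bulk RNA a lower value can come from fewer cells of a type or from less RNA per cell, and these cannot be told apart here.

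Values are on a log2 scale, 1 per gene and sample, as normalised read counts that the authors deposited. A difference of 1 is a 2-fold change. A gene counted as called when its Benjamini-Hochberg adjusted p-value in limma, over all genes tested, was under 0.05 and its log2 fold change (prostate minus MEF) was at least 1 in size. Reads on genes, rebuilt from the values, ranged from 16767292 to 22512393 in the prostates and from 20418163 to 26152345 in the MEFs. The value of 3 reads was 1.98 to 2.34 in the prostates and 1.88 to 2.08 in the MEFs, and was taken as the smallest level that this depth can show. Where every sample of a group lay at or below it, a fold change is given as a lower bound against that level. This floor covers counting error only.

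The MEF samples fell into 3 pairs whose members were far closer to each other than to any other sample. FS015 and FS020 had a Pearson correlation across genes of 0.984, FS016 and FS019 of 0.987 and FS017 and FS018 of 0.987. MEF samples of different pairs correlated at 0.926 to 0.965. A chi-square test on reads gave 5.47 to 31.6 per degree of freedom within the pairs and 303 to 471 between samples of different pairs, so samples of a pair differed by more than counting noise. This does not show that they were separate cultures, which the labels do not state, and with pairs as the unit there are 3 MEF replicates. All 6 were kept as labelled samples. Averaging each pair first left 4136 genes higher and 2893 lower in prostate. Whether paired samples shared a litter or culture was not tested.

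The pairs differed in known cell type and sex markers. Ptprc, which encodes CD45, a target of the sort, had values of 8.83 in FS015 and 8.5 in FS020, against 1.31 to 3.48 in the other 4 MEF samples. Itgam, which encodes the Mac-1 subunit CD11b, had 9.81 and 9.73 in the same pair, against 1.29 to 3.35. The microglia and macrophage chemokine receptor gene Cx3cr1 had 10.10 and 9.97, against 1.47 to 4.09. Leukocyte transcripts were thus read in FS015 and FS020 and were low in the other 4. Reads of the 25 listed blood and immune genes took 0.0706% of all reads in FS015 and 0.0659% in FS020, against 0.00120 to 0.00166% in the other 4 and 0.0281 to 0.0679% in the prostates. Ddx3y, a Y-linked gene, was lowest in the pair FS016 and FS019 (6.58 and 6.58) and had 10.02 to 10.73 in the other 4 MEF samples. Xist, the RNA that coats the inactive X chromosome of females, ranged from 12.26 to 13.63 in the MEFs and from 2.90 to 4.62 in the prostates. Xist and Y-linked transcripts were thus both read in every MEF sample.

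Single cartilage and limb genes set FS017 and FS018 apart. Comp, a cartilage matrix gene, had 12.39 and 12.38 there and 5.31 to 6.81 in the other 4. Col2a1, the main cartilage collagen, had 13.70 and 13.59, against 10.61 to 12.32. Pitx1, a regulator of hindlimb identity, had 8.77 and 8.68, against 6.99 to 7.52. Hoxc8, a positional gene, was lower in this pair, at 5.29 and 4.86, against 8.47 to 8.79. These genes were picked because they varied most among the MEF samples or belong to the lists described below, so their differences are a description.

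**Figure D1:**
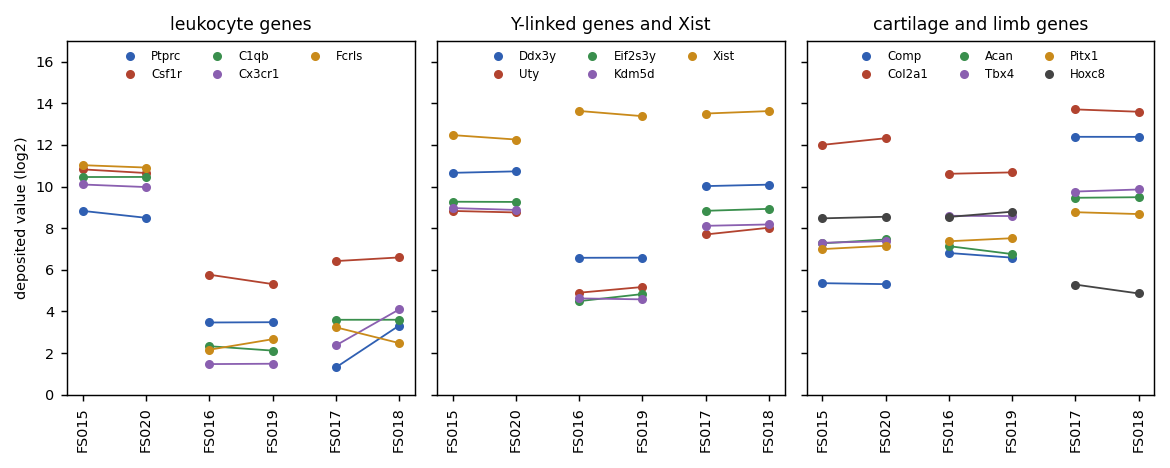
Deposited log2 values of leukocyte genes, Y-linked genes with Xist, and cartilage and limb genes in the 6 MEF samples, with lines joining the 2 samples of each close pair. Leukocyte genes are high in FS015 and FS020 only, Y-linked genes are lowest in FS016 and FS019, and Comp is highest in FS017 and FS018.

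Transcripts of prostate secretions were also read at a low level in FS015 to FS018. Sbp, the spermine binding protein gene and the most abundant prostate transcript by reads, had values of 11.23, 9.48, 9.86 and 9.49 in FS015 to FS018, 1.99 in FS019 and -1.61 in FS020, against 19.62 to 20.67 in the prostates. Pbsn, which encodes the androgen-dependent secretory protein probasin, had 8.55, 6.59, 7.10 and 6.73, then 0.022 and 0.35. Both genes were thus under the level of 3 reads, or next to it, in FS019 and FS020 and well above it in the other 4. Over the 20 genes with the highest prostate level among those at least 10 log2 units above the lowest MEF sample, the median level was 0.198% of the prostate mean in FS015, 0.0599% in FS016, 0.0750% in FS017 and 0.0655% in FS018. In FS019 and FS020 it was 0.00315% and 0.00207%, and 14 of the 20 genes lay at or below 3 reads in each. In FS015 the share ranged from 0.174 to 0.322% over these 20 genes, and from 0.102 to 0.709% over the 50 highest. Over the 20 it ranged from 0.0440 to 0.162% in FS016, 0.0413 to 0.133% in FS017 and 0.0316 to 0.162% in FS018. Over the 50 it ranged from 0.0110 to 0.198% in FS016, 0.00977 to 3.64% in FS017 and 0.0118 to 3.57% in FS018. The share was thus not the same for every gene. The split crosses the close pairs, because FS015 is paired with FS020 and FS016 with FS019. Carry-over of prostate RNA or reads between libraries is a possible source and was not tested. The log2 fold change of Sbp was 13.55, and 20.10 without FS015 to FS018. For the other genes higher in prostate, the value without these samples is given as well where it was larger by more than 1 log2 unit. Values of this kind rest on FS019 and FS020 alone and are not set at a bound. Where both lay under 3 reads, as for Pbsn, Spink3, Msmb, Defb50, Ehf and Pigr, the size of the value is uncertain. For Sbp, FS020 lay under 3 reads and FS019 next to that level.

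**Figure D2:**
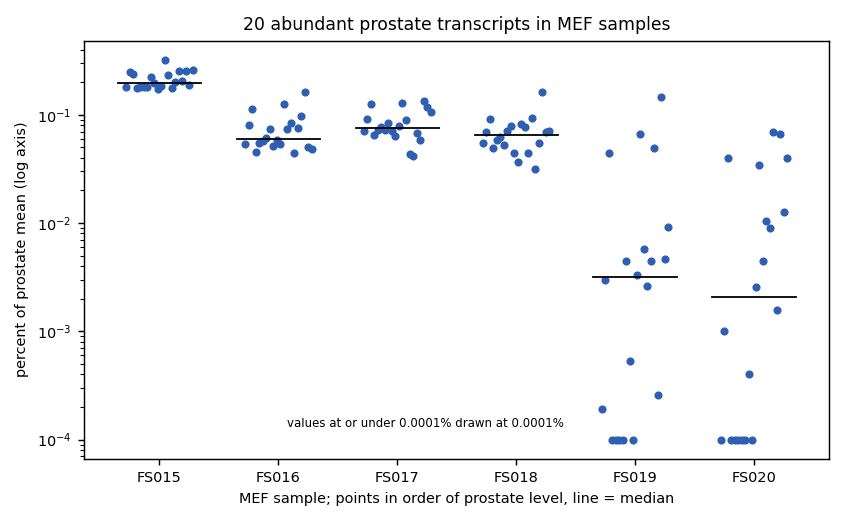
Level of each of 20 abundant prostate transcripts in each MEF sample, as percent of its prostate mean on a log axis, with the median as a line. The medians are 0.198, 0.0599, 0.0750 and 0.0655% in FS015 to FS018 and 0.00315 and 0.00207% in FS019 and FS020.

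Of 23284 genes in the table, 14560 reached a linear mean of 10 in the 12 samples together and were tested. In prostate 4044 were called higher (27.8%) and 2982 lower (20.5%), together 48.3% of those tested. A count of called genes in any group is to be read against these shares. A gene near the floor in 1 group was tested only through its level in the other, which largely fixes its direction. Counts of lists with untested members thus rest partly on the filter. Such lists include secretory, seminal vesicle, blood and immune, neuronal, skeletal muscle and urothelial genes. For 6488 of the called genes (44.6% of those tested) no prostate sample overlapped a MEF sample. The median log2 fold change of all tested genes was 0.17. Large differences lay on the prostate side. At a log2 fold change of at least 5 there were 699 higher and 210 lower genes, at 7 there were 298 and 57, and at 10 there were 44 and 0. With quantile normalisation the balance turned to 3344 higher and 3567 lower, so 48.4% of called genes were higher in place of 57.6%. Equal medians gave 3712 and 3346. Leaving out FS015 to FS018 gave 4163 and 2922.

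**Figure D3:**
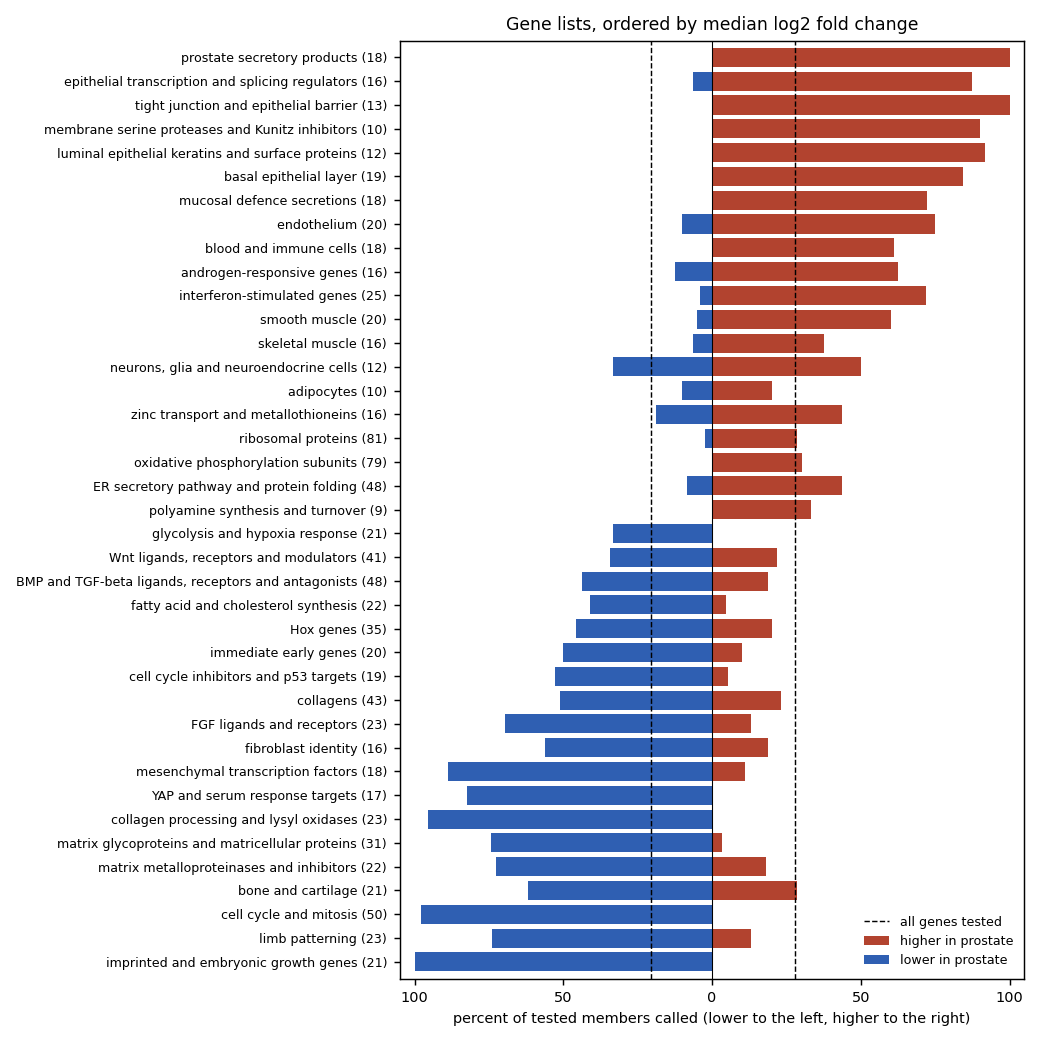
Percent of the tested members of each gene list (number in brackets) called higher (right) or lower (left) in prostate, with lists of at least 9 tested members ordered by median log2 fold change and dashed lines at the 27.8% and 20.5% of all tested genes. Prostate secretory products and epithelial lists stand at the top, and cell cycle, limb and imprinted growth genes at the bottom.

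Secreted proteins of the gland gave the highest values. All 18 tested of 20 prostate secretory products were higher in prostate, though those low in MEFs were tested only through their prostate level. Their median log2 fold change was 10.88, and 12.63 without FS015 to FS018. Their reads took 14.9 to 22.0% of all reads in the prostates and 0.00663 to 0.0515% in the MEFs. Pbsn (chrX:75083240-75098962 in mm9) ranged from 16.88 to 18.32 (median 17.60) in prostate, against 0.022 to 8.55 (median 6.66) in MEFs, a log2 fold change of 12.71 (SE 1.36, adjusted p = 1.5e-06, limma). Without FS015 to FS018 that difference was 17.42, with both remaining MEF samples under 3 reads, so its size is uncertain. The separation of the groups was complete in either case.

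Tgm4, the prostate transglutaminase that forms the copulatory plug, ranged from 17.49 to 19.04 (median 18.58) in prostate and from 7.26 to 9.82 (median 8.61) in MEFs, where all 6 samples stayed well above 3 reads. Its log2 fold change was 10 (SE 0.42, adjusted p = 2.1e-10, limma), and 11.09 without FS015 to FS018. Msmb, which encodes the seminal fluid protein beta-microseminoprotein, ranged from 13.47 to 15.75 (median 14.99) against 1.12 to 5.97 (median 4.03). Its log2 fold change was 11.19, and 13.52 without FS015 to FS018. The prostates split for Msmb, with 13.47 in FS014, a value within 0.1 of it in FS009 and higher values in the other 4. Spink3, a secreted trypsin inhibitor, had a log2 fold change of 12.62 (SE 1.42, adjusted p = 2.4e-06, limma), and 17.53 without FS015 to FS018. Azgp1, a secreted zinc-binding glycoprotein, had 12.79 to 13.84 (median 13.39) against -0.36 to 4.58 (median 2.34), a log2 fold change of 11.22 (SE 0.61, adjusted p = 2.0e-09, limma), and of 12.90 without FS015 to FS018. Smaller differences were found for Clu (clusterin, 2.33) and Mme (neprilysin, a peptidase of the cell membrane, 2.72, or 3.63 without those samples), which the MEFs also expressed at 6.94 to 10.39 and 8.93 to 12.23. Gucy2c and Folh1 were too low in both groups to be tested.

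Most listed secretions of the neighbouring seminal vesicle were near the detection limit. Svs2 ranged from 0.92 to 4.27 in the prostates, Svs4 from 1.88 to 4.62 and Svs5 from 2.09 to 4.65, and 8 of the 10 seminal vesicle genes in the table had too low a mean to be tested. The 2 tested, Ceacam10 and Spinkl, were both called higher in prostate. Their median log2 fold change was 4.58, or 3.64 with the gene under 3 reads in MEFs at its bound. Reads of the list took 0.000290 to 0.000600% of all reads in the prostates.

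Genes of simple epithelium, its junctions and its regulators followed. Of 12 luminal keratin and surface genes, 11 were higher (median 7.34), of 13 tight junction genes all 13 (median 8.27), and of 16 epithelial regulators 14, with 1 lower (median 8.54, or 7.54 with the gene under 3 reads in MEFs at its bound). Krt8, the keratin of luminal cells, ranged from 12.49 to 13.34 (median 12.62) in prostate and from 2.23 to 5.71 (median 3.66) in MEFs. Its log2 fold change was 8.98 (SE 0.52, adjusted p = 3.5e-09, limma), and 9.03 without FS015 to FS018, so this difference did not rest on those samples. Epcam, an epithelial adhesion protein and a target of the MEF sort, ranged from 12.84 to 13.20 (median 12.93) against 1.07 to 4.06 (median 2.22), a log2 fold change of 10.66 (SE 0.38, adjusted p = 5.6e-11, limma). Cdh1, the adhesion protein E-cadherin, had a log2 fold change of 9.71 (SE 0.30, adjusted p = 2.4e-11, limma), and of 10.51 without FS015 to FS018.

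Among junction proteins, Cldn8 (10.60, or 12.60 without FS015 to FS018), Cldn7 (9.18), Cldn3 (8.92) and Cldn4 (8.27), all claudins that seal the space between cells, lay far above the polarity gene Pard6b (1.09) in log2 fold change. Pard6b was not called without FS017 and FS018 (0.82). Muc1, a mucin of luminal surfaces, was the tested luminal member not called (-0.58, 3.86 to 4.91 against 4.45 to 5.38).

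Regulators of epithelial genes included Ehf, an ETS factor, with 13.69 to 14.49 (median 14.21) in prostate against 0.77 to 5.07 (median 3.26) in MEFs and a log2 fold change of 11.11 (SE 0.58, adjusted p = 1.4e-09, limma). Esrp1, which directs epithelial splicing, had 10.67 (SE 0.77, adjusted p = 2.9e-08, limma). Grhl2, which drives junction genes, had 9.67 (SE 0.36, adjusted p = 7.5e-11, limma). Without FS015 to FS018 these were 12.89 for Ehf, 13.24 for Esrp1 and 10.31 for Grhl2. Foxa1 (chr12:58641618-58647108 in mm9), a pioneer factor of the prostate epithelium, ranged from 12.41 to 13.06 (median 12.76) in prostate and from 3.59 to 5.32 (median 4.09) in MEFs, and its log2 fold change was 8.49 (SE 0.26, adjusted p = 2.0e-11, limma). Hoxb13, the Hox gene of the posterior body that marks the prostate, ranged from 12.52 to 13.35 (median 12.90) against 1.29 to 4.67 (median 3.49), with 9.58 (SE 0.47, adjusted p = 8.0e-10, limma), and 10.87 without FS015 to FS018. The prostates varied by under 1 log2 unit for both factors. Trps1, a GATA-type repressor, was lower in prostate (-1.08), but not called without FS017 and FS018 (-0.61) or without FS009 (-0.95), and Klf5 was not called (7.09 to 8.48 against 7.47 to 8.01).

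The basal layer was represented as well. Of 19 tested basal and desmosome genes 16 were higher (median 4.84). Krt5, the basal keratin, ranged from 10.51 to 11.18 (median 11) against -1.47 to 3.41 (median 1.28), a log2 fold change of 9.77 (SE 0.62, adjusted p = 9.2e-09, limma). Trp63, the master regulator of basal cells, ranged from 9.31 to 10.05 (median 9.54) in prostate. In MEFs it had 7.14 in FS017 and 7.26 in FS018 and 2.54 to 3.78 in the other 4, and its log2 fold change was 5.11, or 6.46 without that pair and 6.44 without FS015 to FS018. Itga6, a laminin receptor subunit of basal cells, was high in both groups and not called (10.17 to 10.69 against 9.85 to 11.19). Membrane serine proteases and their Kunitz inhibitors were higher for 9 of 10 (median 7.83, or 7.47 with genes under 3 reads at their bound). Tmprss2, an androgen-regulated protease, had a log2 fold change of 10.24 (SE 0.42, adjusted p = 1.6e-10, limma), or 11.27 without FS015 to FS018, and the inhibitor genes Spint1 and Spint2 had 8.10 and 7.24.

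**Figure D4:**
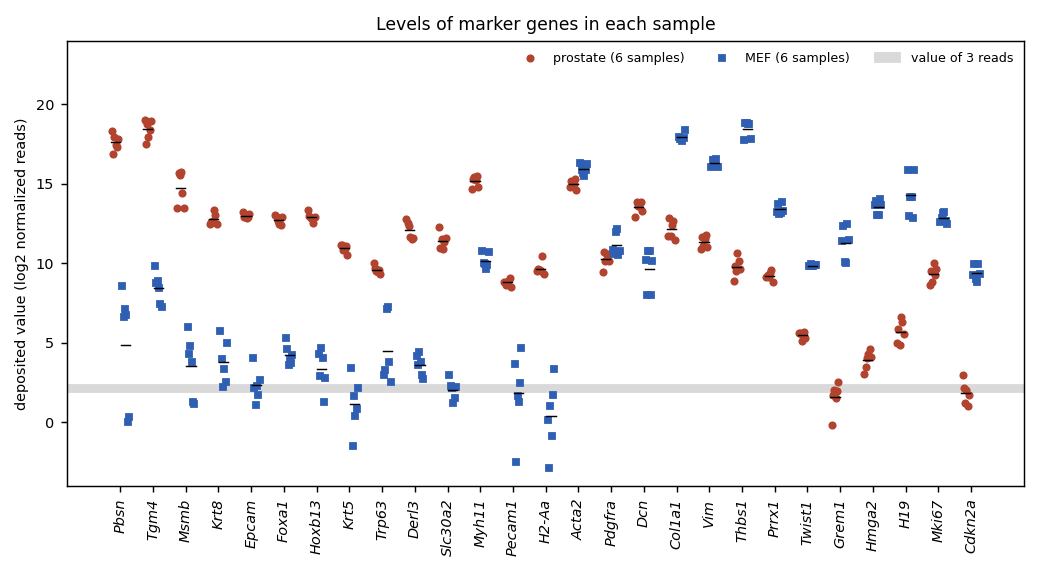
Deposited log2 values of 27 genes in each of the 6 prostate samples (circles) and 6 MEF samples (squares), with a black line at each group mean and a grey band at the value of 3 reads. Epithelial genes separate completely, and Acta2 and Pdgfra lie close together. Matrix genes other than Dcn, embryonic genes and cell cycle genes are higher in MEFs.

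Machinery of protein secretion differed less than its products. The endoplasmic reticulum (ER) folds secreted proteins, and the unfolded protein response adjusts its chaperones to the load. Of 48 listed ER genes 21 were higher and 4 lower in prostate (median 0.70), and with no minimum fold change 32 were higher and 9 lower, where 44.9% of all tested genes were higher and 35.9% lower. Reads of the list took 2.26 to 3.20% in the prostates and 1.67 to 2.05% in the MEFs. Derl3, which helps to export misfolded proteins from the ER, was set far apart, at 12.07 ± 0.56 (SD, n = 6) against 3.62 ± 0.66 (SD, n = 6), with a log2 fold change of 8.46 (SE 0.32, adjusted p = 9.4e-11, limma). Sec11c, a signal peptidase subunit, had 4.51 (SE 0.091, adjusted p = 2.1e-12, limma), and its paralog Sec11a had 0.59 and was not called. Creld2, an ER stress protein, ranged from 12.19 to 14.13 (median 12.82) against 9.68 to 10.59 (median 9.84), with 2.94 (SE 0.33, adjusted p = 2.2e-06, limma). The large chaperones were high in both groups. Hspa5 (BiP) ranged from 15.22 to 16.53 against 14.29 to 15.26, Calr (calreticulin) from 14.98 to 15.74 against 14.76 to 15.44 and Hsp90b1 from 14.55 to 15.75 against 15.07 to 15.54, with log2 fold changes of 0.95, 0.23 and -0.12 that were not called. Without FS017 and FS018 Hspa5 was called, at 1.20. Creb3l1, a membrane-bound factor known from collagen secretion, was lower (6.87 to 9.02 against 10.75 to 11.62, -3.38 (SE 0.28, adjusted p = 1.4e-07, limma)).

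Several of these genes carry an ER stress response element (ERSE) in their promoter, searched as CCAAT followed after 9 further bases by CCACG, on both strands from 250 bases before to 50 after the start in RefSeq promoters (GRCm38.p6). It was present in 8 of the 34 listed ER genes with a promoter (23.5%) and in 37 of all 27025 genes with a promoter (0.137%). Of tested genes with a promoter, 18 of 10278 (0.175%) held it. Both the list and the element were chosen for their link to the ER, so these shares are a description. The 4 shown were chosen to set 3 called genes beside the abundant chaperone gene Hspa5, with the element in capitals. Where the capitals begin with CGTGG the element lies on the opposite strand.
Derl3 (chr10:75893237-75893265, plus strand): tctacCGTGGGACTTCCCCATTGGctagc
Creld2 (chr15:88819515-88819543, plus strand): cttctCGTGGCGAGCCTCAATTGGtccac
Dnajc3 (chr14:118937822-118937850, plus strand): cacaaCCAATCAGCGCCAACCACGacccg
Hspa5 (chr2:34772020-34772048, plus strand): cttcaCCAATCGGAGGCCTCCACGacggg
Of the 8 genes with the element, Derl3, Creld2, Dnajc3 and Pdia6 were called higher in prostate. Hspa5, Calr, Canx and Hsp90b1 were not. The letters alone did not separate the called from the uncalled genes. A match is a description of sequence and not of binding.

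The prostate is known for storing zinc and for making polyamines. Of 16 zinc transporters and metallothioneins 7 were higher (43.8%) and 3 lower (18.8%), against 27.8% and 20.5% of all tested genes. Slc30a2, which moves zinc into vesicles, ranged from 10.88 to 12.28 (median 11.41) against 1.19 to 2.99 (median 2.18), a log2 fold change of 9.36 (SE 0.30, adjusted p = 3.2e-11, limma). The metallothioneins Mt1 and Mt2, which bind zinc in the cytosol, had 4.27 and 5.02, and Mt3 had 7.20. Slc39a6, a zinc importer, was lower (-2.10). Among 9 polyamine genes 3 were higher (33.3%), a share near the 27.8% of all tested genes. Arg2, the arginase that supplies ornithine, had 9.85 to 10.32 (median 10.19) against 0.70 to 3.03 (median 2.24), with 8.14 (SE 0.32, adjusted p = 1.4e-10, limma). Odc1, the rate-limiting enzyme, differed by less than 1 log2 unit (10.87 to 11.44 against 10.45 to 10.83). Oaz1 and Amd1 were at or near the level of 3 reads in both groups although most cells express them, as were Eno1 and Rpl26, so a value at that level does not show that a gene was silent.

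Mitochondrial and ribosomal genes differed by small amounts. Of 79 oxidative phosphorylation subunits 24 were higher and none lower (median 0.73), and the 30.4% higher lay near the 27.8% of all genes. Without a minimum fold change 69 of the 79 were higher, a larger share than the 44.9% of all tested genes at that threshold. Ndufa1, a complex I subunit, had the largest difference (2.5), and Atp5b, an ATP synthase subunit, was not called (-0.13). Of 81 ribosomal proteins 23 were higher and 2 lower (median 0.77), a share close to that of all genes, and with equal medians 13 were higher. Rps28 had 1.84 and Rps14 had 1.54. Reads of ribosomal proteins are shared with many pseudogenes and are uncertain. Of the glycolysis and hypoxia list, 0 were higher and 7 lower of 21 (33.3%, against 20.5% of all tested genes). Pkm2, a pyruvate kinase gene, had 12.69 to 13.10 against 14.46 to 15.03 and a log2 fold change of -1.79 (SE 0.12, adjusted p = 1.0e-08, limma), and the glucose transporter Slc2a1 had -1.17. Gapdh was low in both groups (4.93 to 5.48 against 5.73 to 6.51), and its many pseudogenes make its value uncertain. Synthesis of cholesterol and fatty acids was lower for 9 of 22 genes and higher for 1, the elongase Elovl7 (3.49).

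Androgen-responsive genes were mixed. Of 16 on the list 10 were higher and 2 lower (median 1.92). Zbtb16 (8.20), a zinc finger repressor, and Fkbp5 (2.91), a steroid receptor co-chaperone, were higher, and both also respond to glucocorticoid. Srd5a2, which converts testosterone into its more active form, had 7.56 to 8.22 (median 7.92) against -0.87 to 2.65 (median 1.64), with 6.63 (SE 0.53, adjusted p = 7.9e-08, limma), and its paralog Srd5a1 was not called (0.84). Pmepa1, also a TGF-beta target, was lower, with 7.48 to 8.39 (median 8.19) against 12.07 to 12.87 (median 12.23) and -4.28 (SE 0.17, adjusted p = 1.6e-10, limma).

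Of 25 listed defence genes of mucosal surfaces 18 were tested, and 13 of these were higher with none lower. The median of those tested was 4.59, or 3.10 with the genes under 3 reads in MEFs at their bound. Listed genes low in MEFs were tested only through their prostate level, so these counts rest partly on the filter. Defb50, a beta-defensin, ranged from 14.07 to 16.21 (median 15.55) against 0.38 to 6.53 (median 4.89), with 11.54 (SE 1.02, adjusted p = 2.2e-07, limma). Defb1 had 10.82, and Pigr, which carries antibodies across the epithelium, had 10.73. Without FS015 to FS018 these were 14.84 for Defb50, 12.74 for Defb1 and 12.5 for Pigr. Ltf (lactoferrin) was low in both groups (-1.69 to 6.55 against -1.09 to 3.16) and not called. Interferon-stimulated genes were higher for 18 of 25 and lower for 1, Ifit2 (median 1.83). Mx1, an antiviral GTPase, had 7.44 to 8.73 (median 8.0) against -2.28 to 3.42 (median 1.49), with 6.71 (SE 0.81, adjusted p = 4.4e-06, limma), and the class I antigen gene H2-K1 had 3.65 (SE 0.15, adjusted p = 1.4e-10, limma). Isg15 (0.51) was not called, so the list did not move as a block.

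Cell types of the prostate stroma other than fibroblasts gave a further set. Of 20 smooth muscle genes 12 were higher and 1 lower (median 1.54). Myh11, the smooth muscle myosin, ranged from 14.70 to 15.5 (median 15.26) in prostate and from 9.61 to 10.77 (median 10.01) in MEFs, a log2 fold change of 4.98 (SE 0.21, adjusted p = 2.5e-10, limma). Des, the intermediate filament desmin, had 4.44 (SE 0.49, adjusted p = 1.8e-06, limma). Acta2, the smooth muscle actin that cultured fibroblasts also make, was higher in MEFs by value (14.58 to 15.29 against 15.52 to 16.31) without being called (-0.91, or -1.07 and called without FS017 and FS018), and Tagln was not called (-0.17). Actin genes share stretches of sequence, and their reads can be split. Cald1, an actin-binding protein, was lower (-2.18). Myh11 and Des were thus called, and Acta2 and Tagln were not. Of 16 tested skeletal muscle genes 6 were higher and 1 lower (median 1.53, or 0.81 with genes under 3 reads at their bound and 0.10 with quantile normalisation). Ckm, the muscle creatine kinase, had the largest difference, 7.54 to 8.97 (median 8.27) against -2.75 to 2.07 (median 0.86) and a log2 fold change of 7.91 (SE 0.72, adjusted p = 3.1e-07, limma), or 6.37 without FS015 to FS018.

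Of 20 endothelial genes 15 were higher and 2 lower (median 4.35). Pecam1, which encodes CD31, a target of the MEF sort, ranged from 8.5 to 9.08 (median 8.81) against -2.5 to 4.68 (median 2.05), with 6.92 (SE 0.92, adjusted p = 1.1e-05, limma), or 5.23 without FS015 to FS018. Tie1, a vessel receptor, had 7.30, and Lyve1, a lymphatic marker that macrophages also express, had 6.93. Flt1 and Kdr, the VEGF receptor genes, went against the list, with -2.38 and -0.81, of which Kdr was called only when samples were left out or quantiles matched (-1.39 without FS017 and FS018), and Erg had -3.03. Flt1 ranged from 6.27 to 7.54 in prostate and from 8.68 to 9.95 in MEFs. Of 12 tested genes of neurons, glia and neuroendocrine cells (20 listed) 6 were higher and 4 lower (median 1.02, or -0.31 with quantile normalisation). Chga (at least 9.28-fold higher), a secretory granule protein of neuroendocrine cells, and Prph (3.52), a filament of peripheral neurons, were among the higher. Tubb3 (-4.75) and Ncam1 (-3.36), known from neurons but not confined to them, were lower. Of 6 tested urothelial genes 4 were higher and 1 lower, the surface cell keratin Krt20 (-3.14). Upk1a, a urothelial plaque protein, had 11.40 to 12.74 (median 12.22) against 2.94 to 3.53 (median 3.41), with 8.85 (SE 0.22, adjusted p = 6.8e-12, limma).

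Blood and immune genes depended on the leukocyte transcripts of FS015 and FS020. In all samples 11 of 18 tested (25 listed) were higher in prostate. Without FS015 and FS020 18 were, and without FS016 and FS019 or without FS017 and FS018 5 were. With quantile normalisation 6 were, without FS012 and FS013 5 were, and leaving out 1 sample at a time gave 5 to 17. The class II antigen genes H2-Aa and Cd74 were called in each of these settings. H2-Aa ranged from 9.32 to 10.48 (median 9.56) in prostate and from -2.90 to 3.36 (median 0.59) in MEFs, with FS015 at 0.15 and FS020 at 3.36, and had a log2 fold change of 9.26 (SE 0.81, adjusted p = 2.1e-07, limma), or 7.12 without FS015 to FS018. Cd74, the class II invariant chain, had 7.5 (SE 0.39, adjusted p = 1.3e-09, limma). For the macrophage gene Csf1r, FS015 and FS020 had 10.82 and 10.65, above the prostates at 8.36 to 9.83, and the difference was not called (1.66, or 3.23 and called without that pair). Over all genes, 4295 were higher and 2950 lower without FS015 and FS020.

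Matrix made by fibroblasts set the MEFs apart in the other direction. Of 43 collagen genes 22 were lower in prostate and 10 higher (median -1.28), and their reads took 0.265 to 0.591% of the total in the prostates and 3.86 to 5.25% in the MEFs. Col1a1 (chr11:94797538-94814356 in mm9), a chain of the main fibrillar collagen, ranged from 11.48 to 12.86 (median 12.08) against 17.70 to 18.36 (median 17.86), a log2 fold change of -5.78 (SE 0.23, adjusted p = 1.5e-10, limma). Col3a1, the fibrillar collagen of soft tissue, differed less, from 12.42 to 14.59 (median 13.57) against 15.22 to 16.77 (median 16.04), with -2.43 (SE 0.39, adjusted p = 6.9e-05, limma). Col10a1, the collagen of hypertrophic cartilage, had -0.24 to 2.72 in prostate and 10.56 to 12.36 in MEFs, with -9.75 (SE 0.5, adjusted p = 1.3e-09, limma).

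Other collagens were higher in prostate. Col17a1, which fixes basal cells to the membrane below, had 8.83 to 9.75 (median 9.05) against 2.99 to 4.16 (median 3.42) and a log2 fold change of 5.65 (SE 0.22, adjusted p = 1.0e-10, limma). Within the type IV family, Col4a6 (4.73), Col4a4 (4.53) and Col4a3 (3.58) were higher, and Col4a1 (-2.69), Col4a2 (-3.06) and Col4a5 (-1.39) lower. All 6 chains of the family were called, 3 in each direction.

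Enzymes that modify and cross-link collagen were lower almost throughout, 22 of 23 (median -2.95). Lox, which cross-links collagen and elastin, ranged from 7.69 to 9.25 (median 8.86) against 15.57 to 17.17 (median 15.91), with -7.5 (SE 0.35, adjusted p = 4.7e-10, limma). Serpinh1, the collagen chaperone HSP47, had -4.06 (SE 0.19, adjusted p = 6.6e-10, limma). Ppib, a prolyl isomerase of the ER, was the member not called (0.93, or 1.03 and called as higher without FS012 and FS013). Of 31 matrix glycoproteins 23 were lower and 1 higher (median -2.98), with 0.182 to 0.457% of reads against 6.01 to 7.99%. Thbs1 (thrombospondin 1), the MEF gene with the most reads, ranged from 8.89 to 10.64 (median 9.71) against 17.74 to 18.83 (median 18.77), with -8.69 (SE 0.29, adjusted p = 3.9e-11, limma). Fn1 (fibronectin) had -5.99 (SE 0.32, adjusted p = 2.0e-09, limma), and Tnc (tenascin C), known from embryos and wounds, -8.63 (SE 0.23, adjusted p = 1.0e-11, limma). Spp1 (osteopontin) had the largest difference of any gene lower in prostate without overlap, 4.58 to 5.90 (median 5.12) against 14.60 to 15.84 (median 14.93), with -9.99 (SE 0.28, adjusted p = 1.3e-11, limma).

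Dcn (decorin), a small proteoglycan of adult connective tissue, was the only member of the matrix glycoprotein list called higher in prostate. It had 12.91 to 13.87 (median 13.61) against 8.0 to 10.80 (median 10.17), with 3.87 (SE 0.49, adjusted p = 8.0e-06, limma). The MEF values of Dcn ran in pairs, 8.01 and 8.0 in FS016 and FS019 and at least 10.15 in the other 4. Dpt, another protein of adult dermis and stroma, was also higher (3.53 (SE 0.44, adjusted p = 6.4e-06, limma)), as was Cd34 (2.52), which marks adult stromal cells and vessels. Pdgfra, a receptor of mesenchymal cells, was not called (-0.88, 9.45 to 10.71 against 10.54 to 12.13), though it was at -1.17 without FS016 and FS019, whereas its relative Pdgfrb had -5.09 (SE 0.16, adjusted p = 2.3e-11, limma). Vim, the mesenchymal filament vimentin, had 10.90 to 11.76 (median 11.31) against 16.05 to 16.55 (median 16.44), with -5.01 (SE 0.16, adjusted p = 3.2e-11, limma). Fibroblast genes thus did not fall evenly. Of 16 on the identity list 9 were lower, 3 higher and the others not called.

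Proteases of the matrix and their inhibitors were lower for 16 of 22 (median -3.01). Timp1, a metalloprotease inhibitor, ranged from 5.91 to 7.67 (median 6.72) against 11.87 to 14.07 (median 13.12), with -6.24 (SE 0.43, adjusted p = 1.9e-08, limma). The 4 members higher in prostate were Mmp7, a protease of glandular epithelium, with 12.36 to 14.85 (median 13.61) against 0.72 to 4.71 (median 2.83) and 10.97 (SE 0.62, adjusted p = 3.0e-09, limma), or 12.54 without FS015 to FS018, Timp4 (7.11), Mmp15 (5.27) and Mmp8, which had 4.93 to 6.39 in prostate and lay under 3 reads in every MEF sample, a log2 difference of at least 3.53.

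**Figure D5:**
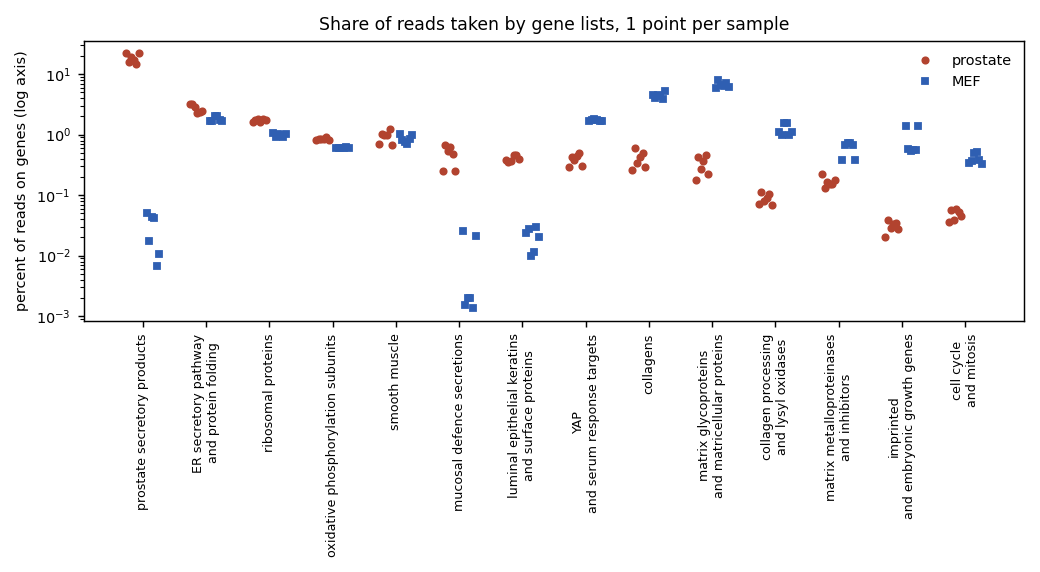
Percent of the reads on genes (log axis) taken by 14 gene lists in each prostate sample (circles) and MEF sample (squares), not corrected for gene length. Prostate secretory products took 14.9 to 22.0% in prostate and 0.00663 to 0.0515% in MEFs, and collagens 0.265 to 0.591% and 3.86 to 5.25%.

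Transcription factors of mesenchyme, limb and body position were next. Of 18 mesenchymal factors 16 were lower in prostate (median -2.66). Prrx1, a limb mesenchyme factor, ranged from 8.84 to 9.55 (median 9.21) against 13.09 to 13.85 (median 13.25), with -4.17 (SE 0.15, adjusted p = 6.1e-11, limma). Twist1, a driver of mesenchymal identity, had -4.39 (SE 0.10, adjusted p = 5.6e-12, limma), Snai1 -4.93 (SE 0.25, adjusted p = 9.2e-10, limma) and Snai2 -3.12. Tcf21, a factor of visceral mesenchyme, was higher, with 7.94 to 8.66 (median 8.25) against -2.09 to 4.0 (median 0.82) and 7.29 (SE 0.81, adjusted p = 2.1e-06, limma). Of 23 limb patterning genes 17 were lower and 3 higher (median -3.5, or -3.17 with genes under 3 reads at their bound). Grem1, a BMP antagonist of the limb bud, had -0.14 to 2.55 (median 1.83) against 9.99 to 12.44 (median 11.43), with -9.67 (SE 0.52, adjusted p = 1.9e-09, limma), and Tbx15 had -8.86 (SE 0.37, adjusted p = 1.8e-10, limma). Shox2 lay at or under 3 reads in every prostate and had 6.72 to 7.68 in MEFs, at least 34.8-fold lower in prostate. The hindlimb gene Tbx4 and the forelimb gene Tbx5 were both read in the MEFs (7.30 to 9.86 and 7.80 to 8.45). Tbx3, a factor of limb and gland buds, was higher in prostate (4.10 (SE 0.24, adjusted p = 3.4e-09, limma)).

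Hox genes, which encode position along the body, moved in both directions. Of 35 tested 16 were lower (45.7%) and 7 higher (20%), against 20.5% and 27.8% of all tested genes (median -0.81). All 7 tested HoxC genes were lower in prostate. Hoxc10 had 1.25 to 3.46 (median 1.55) against 5.76 to 8.15 (median 7.08) and -5.09 (SE 0.49, adjusted p = 5.0e-07, limma), and Hoxc6 lay at or under 3 reads in every prostate, at least 40.8-fold lower. Hoxb13 aside, the genes called higher differed by small amounts, from Hoxa10 (1.04) to Hoxd4 (2.31). Hoxa13 had 8.05 to 8.55 against 6.0 to 7.77, and Hoxd13 had 9.68 to 10.46 against 9.85 to 11.58 and was not called (-0.81). Without FS015 and FS020 Hoxa13 (0.74) and Hoxa10 (0.76) were not called and Hoxd13 (-1.30) was. These distal genes were therefore read in both groups.

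Skeletal genes were lower for 13 of 21 tested and higher for 6 (median -3.13, and -2.27 without FS015 to FS018, which takes out the pair FS017 and FS018). Reads of this list took 0.361 and 0.364% in FS016 and FS019, 0.290 and 0.294% in FS017 and FS018 and 0.227 and 0.231% in FS015 and FS020. Runx2, the bone regulator, had 5.41 to 6.24 (median 5.88) against 9.86 to 10.45 (median 10.13), with -4.27 (SE 0.15, adjusted p = 4.9e-11, limma). Sox9, which acts in cartilage and in prostate epithelium, was higher in prostate (1.5 (SE 0.24, adjusted p = 6.0e-05, limma)), and so was the phosphatase Alpl (5.65, or 6.68 without FS015 to FS018).

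Division genes were lower in prostate nearly without exception. Of 50 cell cycle and mitosis genes 49 were lower (median -3.41), and Gins1 was not called (-0.85). Reads of the list took 0.0364 to 0.0594% against 0.328 to 0.523%. Mki67, the marker of cycling cells, ranged from 8.61 to 10.03 (median 9.37) against 12.45 to 13.25 (median 12.75), with -3.52 (SE 0.23, adjusted p = 1.1e-08, limma). Cdk1, the mitotic kinase, had 6.71 to 7.66 (median 7.45) against 10.39 to 11.34 (median 10.91), with -3.57 (SE 0.20, adjusted p = 3.3e-09, limma). Cenpe, a kinetochore motor, had -5.06 (SE 0.20, adjusted p = 1.1e-10, limma), and Pcna, the replication clamp, -1.21 (SE 0.14, adjusted p = 3.1e-06, limma). Mitotic genes such as Plk1 (-4.32) and Bub1 (-4.54) had larger log2 fold changes in size than the replication genes Mcm2 (-1.70) and Mcm7 (-1.60), a difference between genes that was not tested.

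Many mitotic promoters hold the cell cycle genes homology region (CHR), searched as TTTGAA on both strands within 50 bases of the start in the same RefSeq promoters. It was found in 16 of 39 listed cell cycle genes with a promoter (41.0%). The shares were 382 of 10278 tested genes with one (3.72%) and 1546 of 27025 genes in all (5.72%). Both the list and the element were chosen for their link to division, so these shares are a description. The 5 mitotic genes shown were chosen because the element lies just before the start, with the element in capitals and TTCAAA where it lies on the opposite strand.
Cdk1 (chr10:69352913-69352936, minus strand): cgcggcgagTTTGAAactgctggc
Cdc20 (chr4:118437347-118437370, minus strand): cagttgggtTTTGAAggagccaat
Top2a (chr11:99024198-99024221, minus strand): agataaaggTTCAAAtgaaactag
Ube2c (chr2:164769891-164769914, plus strand): gggttgcaaTTCAAAcgcgggcgg
Ncapg (chr5:45669886-45669909, plus strand): cgatagttgTTTGAAaactctggc
All of these were lower in prostate, with log2 fold changes of -3.57 for Cdk1, -3.80 for Cdc20, -2.87 for Top2a, -3.96 for Ube2c and -4.25 for Ncapg. Since 49 of the 50 listed genes were lower, the element did not mark a subset of them.

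Inhibitors of division were lower too, 10 of 19 (median -1.0). Cdkn2a, the Ink4a and Arf locus that fibroblasts switch on in culture, ranged from 1.02 to 2.96 (median 1.86) against 8.84 to 9.95 (median 9.30), with -7.54 (SE 0.33, adjusted p = 2.8e-10, limma), and lay at or below 3 reads in 4 of 6 prostates. Cdkn1a (p21) had 6.69 to 10.30 in prostate and 11.71 to 13.23 in MEFs, with -4.43 (SE 0.64, adjusted p = 2.5e-05, limma), and its prostate values of 10.30 in FS012 and 10.23 in FS013 stood above the other 4. Btg1, an antiproliferative gene, was higher in prostate (2.60 (SE 0.14, adjusted p = 1.6e-09, limma)).

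Embryonic growth genes, many of them imprinted, were lower for all 21 of 21 tested (median -5.05). Hmga2 (chr10:119798331-119913525 in mm9), a chromatin protein of embryonic growth, ranged from 3.06 to 4.63 (median 4.07) against 13.04 to 14.05 (median 13.66), with -9.63 (SE 0.26, adjusted p = 1.2e-11, limma). H19, an imprinted RNA, had 4.85 to 6.66 (median 5.70) against 12.87 to 15.89 (median 14.18), with -8.63 (SE 0.55, adjusted p = 9.8e-09, limma), and its neighbour Igf2, a growth factor, had -7.61 (SE 0.5, adjusted p = 1.2e-08, limma). The MEF pairs differed here, with H19 at 15.89 and 15.89 in FS015 and FS020 and at most 14.19 in the other 4. Igf2bp1, which binds mRNAs in the embryo, had -8.55 (SE 0.29, adjusted p = 3.8e-11, limma), and Dlk1 had -7.51 (SE 0.40, adjusted p = 1.7e-09, limma).

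Targets of serum, actin tension and YAP, which respond to a stiff growth surface, were lower for 14 of 17 (median -2.80). Ctgf ranged from 9.07 to 10.76 (median 9.60) against 14.31 to 15.18 (median 14.72), with -5.05 (SE 0.25, adjusted p = 8.3e-10, limma), and Cyr61, a related matricellular gene, had -5.76 (SE 0.37, adjusted p = 9.7e-09, limma). Vcl, the adhesion protein vinculin, had -2.89 (SE 0.12, adjusted p = 2.5e-10, limma). A serum response (CArG) box was found on both strands together in 5 of 12 listed genes with a promoter (41.7%). The shares were 172 of 10278 tested genes with one (1.67%) and 488 of 27025 genes in all (1.81%). Both the list and the box were chosen for their link to serum response, so these shares are a description. The boxes of Vcl and the cytoplasmic actin gene Actg1, both lower in prostate, are shown with the box in capitals.
Vcl (chr14:20929162-20929189, plus strand): ccactatgcCCTTATAAGGagcgccccg
Actg1 (chr11:120348567-120348594, minus strand): gaaagatcgCCATATATGGacatgttct
Filip1l, lower in prostate (-2.52), also held a box, and so did Myl9 (0.38) and Srf (-0.62), which were not called. Immediate early genes, which switch on within minutes of a stimulus, were lower for 10 of 20 and higher for 2. Fosl1 had -1.32 to 3.04 (median 1.70) against 5.75 to 7.54 (median 6.83), with -5.37 (SE 0.67, adjusted p = 6.6e-06, limma). For Egr1 the prostates FS012 and FS013 had 11.96 and 11.14, inside the MEF range of 10.53 to 12.19, and the other 4 prostates had 7.94 to 8.26. Atf3, higher in prostate (3.62), had its highest values in the same samples, 13.45 and 11.19, against 8.0 to 8.88. Without FS012 and FS013 the log2 fold change of Egr1 was -3.27 and that of Atf3 2.39. Without FS017 and FS018 that of Egr1 was -1.75 and was no longer called, nor was it without FS015 to FS018 (-1.72) or with the close MEF pairs averaged (-2.13).

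Signalling families split between ligands. Of 23 tested FGF genes 16 were lower and 3 higher (median -1.40). Fgf1 was higher in prostate, 11.11 to 11.56 (median 11.43) against 2.22 to 4.72 (median 2.90), with 8.13 (SE 0.40, adjusted p = 8.9e-10, limma), whereas Fgf7 (-2.72), Fgf2 (-3.04) and the feedback target Etv5 (-2.68) were lower. Fgf10, a mesenchymal ligand of gland budding, was lower (-1.12, 7.89 to 8.33 against 8.19 to 10.11), but not without FS016 and FS019 (-0.74). Of 41 Wnt genes 9 were higher (22.0%) and 14 lower (34.1%), against 27.8% and 20.5% of all tested genes. Wnt7b, an epithelial ligand, had 8.55 to 9.14 (median 8.87) against 1.18 to 3.05 (median 2.03), with 6.79 (SE 0.31, adjusted p = 4.2e-10, limma), and the target gene Axin2 had 3.34 (SE 0.21, adjusted p = 9.1e-09, limma). Wnt5a, a mesenchymal ligand, had -2.17 (SE 0.19, adjusted p = 2.5e-07, limma). Of 48 BMP and TGF-beta genes 9 were higher (18.8%) and 21 lower (43.8%). Bmp7 had 10.12 to 10.71 (median 10.37) against 0.94 to 3.91 (median 3.07), with 7.54 (SE 0.40, adjusted p = 1.5e-09, limma), while Bmp4 (-2.87), Inhba (-7.41) and the joint ligand Gdf6 (-8.14) were lower. The ligands Fgf1, Wnt7b and Bmp7 were thus higher in prostate. The 9 higher Wnt genes also included the secreted antagonists Wif1, Sfrp5 and Notum, so ligands were not alone on that side.

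Gene families formed from shared symbol stems, with at least 10 tested members, gave 192 groups. The largest shares higher in prostate were those of keratins (Krt, 13 of 17), interferon regulatory factors (Irf, 8 of 11), entries named Mir (10 of 14, but 5 with quantile normalisation), claudins (Cldn, 9 of 13) and aldehyde dehydrogenases (Aldh, 12 of 19). The largest shares lower were those of gamma-A protocadherins (Pcdhga, 12 of 12), the replication helicase (Mcm, 8 of 10), other protocadherins (Pcdh, 8 of 10), microtubule-associated proteins (Mtap, 8 of 11), cadherins (Cdh, 9 of 14) and S100 and related S genes (S, 9 of 14). The Pcdhga genes share exons, so their 12 counts are not separate measurements, and entries named Mir can overlap host genes. Keratins and claudins are epithelial and stood against the cadherins, among which Cdh1 was higher in prostate.

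Reads were concentrated in few genes in the prostate. The 10 genes with the most reads took 16.2 to 24.4% of the reads in the prostates and 7.93 to 9.55% in the MEFs. In prostate Sbp took a mean of 6.76%, 9530053A07Rik, an uncharacterised gene, 6.41%, Tgm4 1.94% and Pbsn 1.06%. In MEFs Thbs1 took 1.97%, Fn1 1.73% and Col1a1 1.32%. These shares are of reads and are not corrected for gene length.

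The prostates also varied among themselves. FS009 stood apart for Sbpl, a paralog of Sbp that can share its reads, at 17.56 against 7.35 to 8.89 in the other 5, and for Vnn1, a pantetheinase, at 11.58 against 4.44 to 5.99. Gad2, an enzyme that makes GABA, was also higher there (8.96 against 4.23 to 5.46). Aqp8, a water channel, was lowest in FS009 and FS014 (5.72 and 7.81) and at least 9.49 in the other 4. Cxcl10, an interferon-induced chemokine, was highest in FS012 and FS013 (9.58 and 8.86), the samples with the highest Atf3 and Egr1. These genes were chosen as those that varied most, so the differences are a description. Without FS012 and FS013, 3913 genes were higher and 3038 lower in prostate.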

How the data were processed

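RNA of 6 prostate and 6 MEF samples was sequenced from unstranded libraries, so overlapping genes on opposite strands cannot be told apart. The processing notes of the submitters name bcl2fastq 1.8.4, TopHat, Cufflinks, DESeq and the build mm9. The authors deposited normalised values on a log2 scale, 1 per gene and sample, for 23284 genes. Values from 11.5 to 15 were whole reads within 0.05 reads after removal of a shared offset of 1.61, which gave the depth, and lower values carry added scatter, so no count test was run. No columns were identical. The second deposited table, which holds grafts alone, was not used here.

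Groups were taken from the sample labels and compared on the deposited values with limma 3.58.1 in R 4.3.3 (lmFit, eBayes with trend) over the genes whose linear mean reached 10, without a pseudocount. Single genes were also compared by exact two-sided permutation of the 6 against 6 samples (924 arrangements, smallest p = 0.0022). Tables were made with pandas 2.3.3 (Python 3.11.15), permutations with numpy 2.4.6, and figures with matplotlib 3.10.9. The limma step was tested on simulated data. Positions are from GENCODE M1 on mm9, and promoters from RefSeq (GRCm38.p6), where 10278 tested genes matched by symbol.

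The comparison, the gene lists and the promoter elements were chosen with earlier results of these data known. Genes named follow a rule: the 12 largest log2 fold changes without overlap in each direction, the first 3 and the 3 largest members of each list and members against its direction, the 12 genes varying most within a group, the 20 highest genes per group and the 8 leading symbol families per direction. Other list members were added after their values were seen. Alternatives changed the pseudocount, filter, scaling, threshold, trend, samples in the fit and the number of genes in the carry-over measure. Leaving out each close MEF pair, or FS012 and FS013, was chosen after seeing the data. Some genes are not reported here and are left out of the list counts.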

Additional observations from a re-analysis of the deposited data

Results flagged for a closer look

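In groups of 6 samples, a sample was listed here when its gap to the nearest other sample exceeded 0.625 of the range of the group. Of 386 groups tested (193 genes in prostate and in MEFs) 15 met this rule. Chance alone gives 1 in 20 for independent samples. The MEF samples fell into close pairs, which makes such a gap less likely, so the count cannot be set against that rate. Sbpl, Vnn1 and Gad2 had been named because they varied most within the prostates. The chance rate does not apply to them, and all flags are a description. The prostate sample FS009 stood apart most often. It was highest for Sbpl (17.56, next 8.89), Vnn1 (11.58, next 5.99), Gad2 (8.96, next 5.46), Col17a1 (9.75, next 9.17), Ctgf (10.76, next 9.70), Mmp15 (11.71, next 11.26) and Spint2 (14.32, next 13.89). It was lowest for Lyve1 (6.54, next 8.68), Col10a1 (-0.24, next 1.93) and Grem1 (-0.14, next 1.55), of which Col10a1 and Grem1 lay under the value of 3 reads. Prostate sample FS013 was highest for H2-Aa (10.48, next 9.63) and Dlk1 (3.54, next 2.50). Prostate sample FS014 was lowest for Pmepa1 (7.48, next 8.06). Among MEFs, FS017 was highest for Isg15 (8.43, next 6.56), and FS020 for Col1a1 (18.36, next 17.94). Their causes were not tested.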

How the results depend on the processing

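No gene called in one direction was called in the other under any alternative. The count of genes higher in prostate was 6544 without a minimum fold change and 2397 with a minimum log2 fold change of 2, and the count lower was 5228 and 1590. In every other alternative these counts, and the carry-over level of each MEF sample with 50 genes in place of 20, stayed within 1.5 times or the spread of the main value. Leaving out 1 sample gave 3965 to 4168 higher and 2940 to 3014 lower genes. Of the tested genes given with values, 161 kept their call and sign in all 25 alternatives, 12 became called in some, 10 lost the call in some and 8 that were not called changed sign. With quantile normalisation the log2 fold change became 0.35 for Atp5b, 0.37 for Hsp90b1, 0.038 for Itga6, -0.22 for Klf5, -0.86 for Ltf and 0.35 for Tagln. Klf5 was also -0.092 with equal medians, -0.18 without FS012 and FS013, -0.073 without FS015 and FS020 and -0.095 to 0.18 when 1 sample was left out. Without FS012 and FS013 Hsp90b1 was 0.14 and Isg15 -0.096. Without FS015 to FS018 Ltf was -0.93. Without FS016 and FS019 Cx3cr1 was -0.14 and Itga6 0.24. Without FS017 and FS018 Hsp90b1 was 0.0073. With 1 sample left out Hsp90b1 was -0.24 to 0.0010 and Itga6 -0.19 to 0.079. The cause was not tested. With quantile normalisation 1 oxidative phosphorylation gene and 2 mucosal genes were lower. No paired analysis was possible because the labels number no replicates and tie no prostate sample to a MEF sample. Differences in genes with under 3 reads in both groups were not detectable at this depth.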
